A study of Saccharomyces cerevisiae and Saccharomyces kudriavzevii and Saccharomyces uvarum with 18 samples.

Results

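Gene expression of the commercial wine yeast Saccharomyces cerevisiae Fermol cryophile was compared with that of the reference wine strain S. cerevisiae Lalvin T73 in fermentations at 28°C. The comparison was made on 3 arrays of the 18 in the series, those labelled Fermol cryophile at 28°C, replicates A, B and C, and covered 6172 genes. Fermol cryophile is one of the cryophilic strains of the study, and T73 is its mesophilic reference. Both strains fermented Tempranillo must, and RNA was taken from whole cultures at the start of stationary phase. On every array the strain carried the dye Cy3 and T73, grown at the same temperature, carried Cy5. Other groups used for comparison were Fermol cryophile at 12°C, S. uvarum CECT 12600 at 28°C and S. kudriavzevii IFO 1802 at 28°C, with 3 arrays each and T73 of the same temperature in the other channel. All values are log2 ratios of strain over T73, so that 1 stands for a level 2-fold higher in the strain and -1 for one 2-fold lower. Since whole cultures were measured, a change in the share of cells in some state and a change per cell cannot be told apart.

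When wine yeast leaves growth, it reduces the synthesis of ribosomes, one of the largest uses of RNA in a cell, and lives on stored or recycled nitrogen. Higher alcohols, which give wine part of its aroma, arise in the Ehrlich pathway, where a transaminase takes the amino group from an amino acid, a decarboxylase makes the aldehyde and an alcohol dehydrogenase reduces it. Part of these alcohols is joined to acetate to give acetate esters, and ethanol is joined to fatty acids to give ethyl esters. The genome also holds Ty retrotransposons, elements that copy themselves through RNA and encode a Gag coat protein and a longer Gag-Pol protein, and the number of their copies differs between strains.

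The 3 arrays did not carry the same amount of difference between the strains. The standard deviation over all genes was 1.33 on replicate A, 1.21 on replicate B and 0.63 on replicate C. Replicate A held 32.7% of its genes at 2-fold or beyond, replicate B 38.8% and replicate C 6.11%. Replicates A and B correlated across genes with a Pearson r of 0.61, whereas replicate C correlated with A at 0.09 and with B at 0.03. Genes are not independent replicates, so these coefficients describe the arrays only. The 3 arrays may come from fewer independent fermentations than 3, so that n counts arrays and the p-values may measure technical spread in part. Of all genes, 50.8% were above 0 on C. Of the 766 genes that were 2-fold higher on both A and B, 765 had a value on C, where 57.9% were above 0 with a median of 0.08. Of the 525 genes 2-fold lower on both A and B, 65.1% were below 0 on C with a median of -0.16. Only 27 genes were 2-fold higher on one of A and B and 2-fold lower on the other. Results below are therefore given array by array, and replicate C is set beside A and B throughout.

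**Figure D1:**
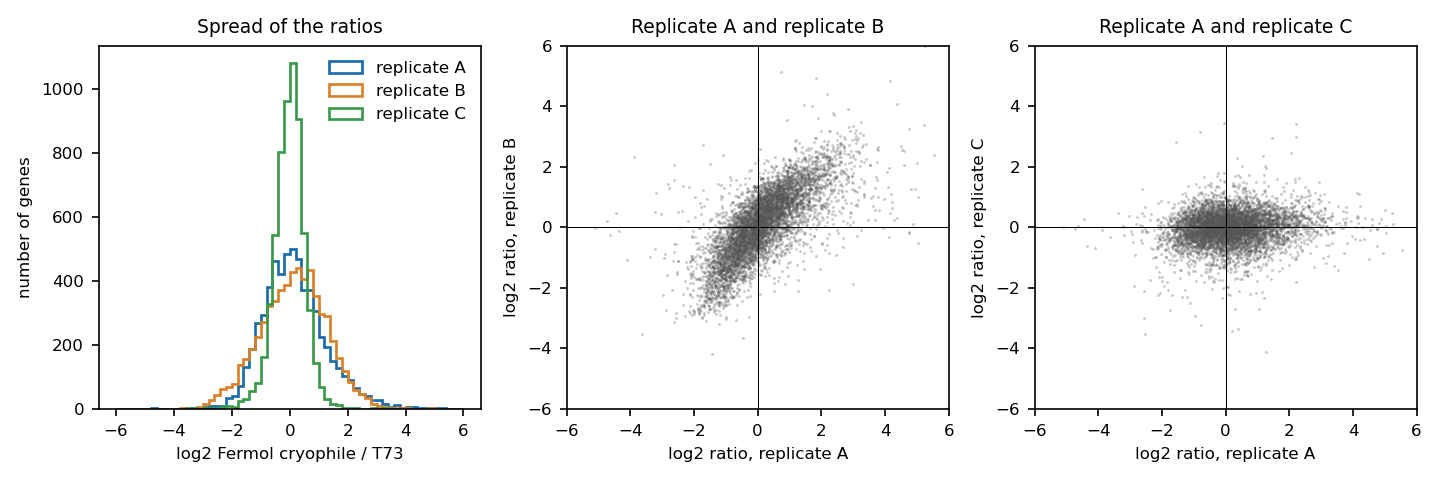
Left, the number of genes by log2 ratio of Fermol cryophile over T73 on each array at 28°C, in bins of log2 width. Middle and right, each point is a gene, with replicate A on the x axis and replicate B or replicate C on the y axis. Replicates A and B run along a diagonal (r of 0.61), while the values of replicate C lie in a narrow band around 0 (SD 0.63). Axes end at 6 and -6, which leaves out 26 genes of the middle panel and 29 of the right one.

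The ratios also varied along the genome. Genes of chromosomes II to IV, as read from their systematic names, had a median of 0.51 on replicate A, 0.38 on B and 0.17 on C, against -0.02, 0.11 and -0.04 for the 4751 genes of the other chromosomes. By the median of the replicates, 305 of the 1388 genes on chromosomes II to IV were 2-fold higher and 57 were 2-fold lower. On the other chromosomes 512 of 4751 were higher and 502 were lower. The other strains at 28°C were high there as well, with medians on chromosome II of 0.94 in S. uvarum and 0.71 in S. kudriavzevii, against 0.52 in Fermol cryophile. At 12°C the medians of Fermol cryophile were 0.10 on chromosome II, 0.42 on III and -0.08 on IV. The other chromosomes together had -0.18 at 12°C, though chromosome I among them had 0.70. The part of this pattern in the results on single genes was not tested, and values for genes on the other chromosomes are given below for the main groups.

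**Figure D2:**
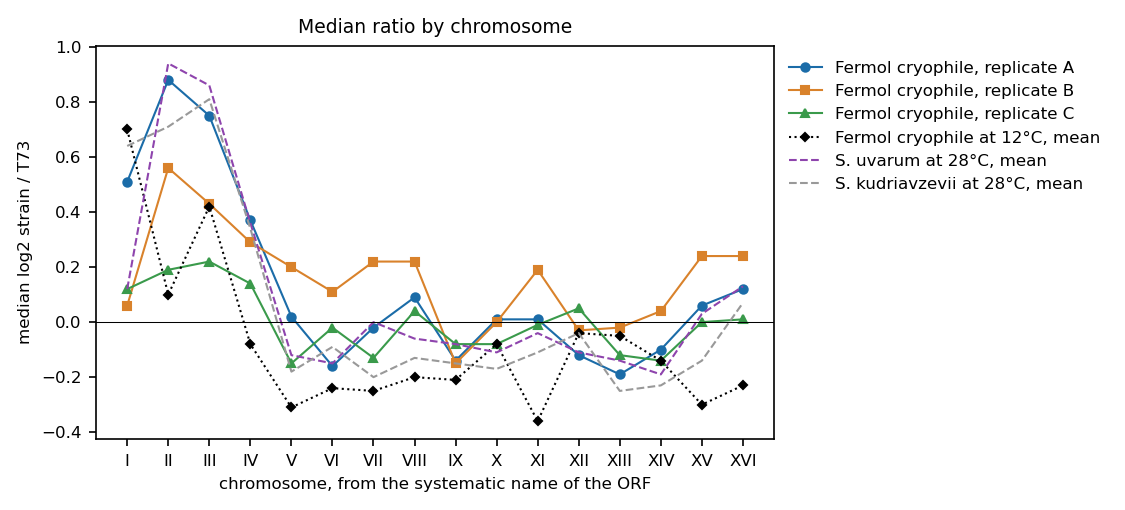
Median log2 ratio of strain over T73 of the genes of each chromosome (x axis, numbered from the systematic names). Solid lines are the 3 arrays of Fermol cryophile at 28°C, dashed lines the means of the other strains at 28°C and the dotted line the mean of Fermol cryophile at 12°C. Chromosomes II and III stand highest on all 3 arrays, at 0.88 and 0.75 on replicate A.

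Of the 6151 genes tested, OPT2 was higher and the Ty1 ORF YMR051C was lower in Fermol cryophile than in T73. These were the only ones to pass an adjusted p of 0.05 in limma, 0.0325% of the genes. OPT2, a member of the oligopeptide transporter family, was at 6.76 on replicate A, 4.34 on B and 1.69 on C, a mean of 4.26 ± 2.53 (SD, n = 3, limma adjusted p = 0.0454). It was far above 0 on each array, but its values spread widely. YMR051C, the Gag ORF of a Ty1 element, was at -2.56, -2.98 and -2.99, a mean of -2.85 ± 0.25 (SD, n = 3, limma adjusted p = 0.0454). Its 3 arrays lay close together, replicate C included. Without replicate A or without replicate B no gene passed, and without replicate C 178 did, 159 of them higher and 19 lower. Neither call held in the fit with a replicate block, with the 9 arrays at 28°C alone and with the 3 arrays alone, and OPT2 did not pass with arrays centred on the median either.

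At an unadjusted limma p below 0.05, 566 genes were higher (9.2% of those tested) and 260 were lower (4.23%). By a median of the replicates of at least 2-fold, which has no test, 822 genes were higher (13.4%) and 564 lower (9.17%). A far smaller set stood 2-fold away on each of the 3 arrays. Of the 6008 genes with 3 values, 24 were 2-fold higher on all 3 arrays (0.399%) and 34 were 2-fold lower (0.566%).

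The 24 higher genes included several of protein synthesis. They were the ribosomal protein genes RPL4B, RPL8A, RPL8B and RPS13, the initiation factor genes TIF35 and SUI3, the elongation factor gene TEF4 and RMT2, an arginine methyltransferase of a ribosomal protein. Of 132 ribosomal protein genes with 3 values 4 were in this set, and of 36 translation factor genes 3 (against 0.399% of all genes). SUI3, the beta subunit of the factor that brings the initiator tRNA, had the tightest values at 1.23, 1.13 and 1.17. Others serve amino acid and nitrogen use. BAT1 is the mitochondrial branched-chain transaminase, OAC1 carries oxaloacetate and a leucine precursor across the mitochondrial membrane, STP4 belongs to a family of zinc finger proteins that includes regulators of amino acid permeases, and NPR3 is a subunit of the complex that restrains TORC1. STP4 was at 1.62, 1.46 and 1.60, and OAC1 at 2.50, 3.10 and 1.34. The remaining ones were AAH1 (adenine deaminase), COX17 (the copper chaperone of cytochrome oxidase), TSC13 (a reductase of very long chain fatty acid synthesis), PRP6 (a splicing factor), USE1 (a SNARE of the endoplasmic reticulum), LTP1 (a phosphatase), MRX16, PET18, YHR054C and OPT2, with YBR089W and YLR339C, which RefSeq does not annotate. COX17, at 2.30, 2.09 and 1.63, varied least between arrays among those above 2 in the mean. Of these 24 genes, 10 lay on chromosomes II to IV, which hold 1388 of the 6172 genes. Of the 34 lower genes described next, 3 lay there.

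Among the 34 lower genes, 9 were in the list of 26 Ty ORFs used here (against 0.566% of all genes). A further 4 belonged to fatty acid and phospholipid synthesis. They were OLE1, FAS1 and FAA4, of 16 fatty acid genes, and INO1, of 16 genes of inositol and phospholipid synthesis. Further ones concern metals and membrane sterols. AFT1, the activator of the iron regulon, was at -1.63, -2.32 and -1.25. CRS5, a copper metallothionein, was at -1.14, -1.77 and -1.31. IZH2, a membrane protein tied to zinc, was at -1.94, -1.36 and -1.95. HES1, an oxysterol-binding protein, had -1.93, -1.71 and -1.14. SPT16 (a histone chaperone of transcription), RAD26 (transcription-coupled repair), NNK1 (a kinase), ECM5, ISM1 (the mitochondrial isoleucyl tRNA synthetase), SPG1, PBI1 and ALG12 made up the rest of those with a symbol. PBI1 lay at -2.36, -2.19 and -1.75. ALG12 was at -1.89 and -1.23 on A and B and at -16.3 on C, the 1 value below -10 on that array, so its mean of -6.48 rests on a value at the bottom of the scale. YFL-TYB, by its name a Ty ORF that the list did not hold, was at -1.43, -1.79 and -1.41. No symbol was given for YFL-TYB or for YCR085W, YEL075C, YGL199C, YHR214C-B, YJL218W, YJR020W, YLR428C and YMR324C.

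Genes for cytosolic ribosomal proteins were mostly on the higher side on replicates A and B. Of 137 such genes, 111 were 2-fold higher by the median (against 13.4% of all genes) and 3 were 2-fold lower. An unadjusted limma p below 0.05 was reached by 89 on the higher side and by 0 on the lower side. Over all genes these shares were 9.2% and 4.23%, and no ribosomal protein gene passed after adjustment. The median of the group was 2.13 on replicate A and 1.99 on B, but 0.21 on C, where the median of all genes was 0.01. Replicate C still placed 92 of 136 members above 0 (against 3123 of 6146 over all genes). On C 7 of them were 2-fold higher, and on A 112 of 133 were (against 141 of 6146 and 1170 of 6033 over all genes). Large and small subunits lay together, with medians of the means of 1.44 for 80 genes of the 60S subunit and 1.42 for 57 genes of the 40S subunit. On chromosomes other than II to IV the median of the means was 1.38 over 107 genes.

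The highest members were RPL22B, RPS28B, RPL8B, RPL32 and RPL8A. RPL22B was at 4.37, 4.07 and 0.31, and its paralogue RPL22A was at -1.10, -1.41 and 0.16. The copies of this pair thus lay on opposite sides of 0 on A and B and close together on C. The pair RPL8A and RPL8B did not part in this way, at 2.96, 2.88 and 1.08 for the first and 3.08, 3.01 and 1.09 for the second. Copies as alike as these share probe sequence, and the arrays of PCR products may not tell them apart. The lowest member was RPS19A, at -0.40, -1.74 and -1.03. The other members below -0.4 in the mean were RPL26B, RPL22A, RPL24B, RPL13B and RPS30A.

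Genes of translation factors and of ribosome assembly stood above the median of all genes as well. Of 37 translation factor genes, 21 were 2-fold higher and 1 was lower by the median (against 13.4% and 9.17% of all genes), with medians of 1.16 on A, 1.31 on B and 0.04 on C. On chromosomes other than II to IV, 17 of 30 were higher (against 10.8% of all genes there). TEF4, a subunit of the elongation factor that reloads eEF1A, was highest at 2.13, 1.89 and 1.24. TIF34, a subunit of the initiation factor eIF3, was lowest at -1.60, -1.29 and -0.92, and lower on each array, while TIF35 of the same complex was higher on each array at 1.73, 1.60 and 1.10. Of 78 ribosome biogenesis genes, 22 were 2-fold higher and 1 was lower, with medians of 0.84, 0.66 and 0.26, and 18 of the 61 on the other chromosomes were higher. RRP7, a factor of small subunit assembly, was highest at 5.22, 3.37 and 0.47, and UTP13 was lowest at -1.36, -1.36 and -0.52. Of the 68 genes of mitochondrial ribosomal proteins 8 were 2-fold higher and 3 lower, near or below the shares of all genes, with medians of 0.34, 0.56 and -0.14. MRP21 was the highest of these (4.61, 2.05 and 0.26) and MRPL39 the lowest (-2.27, -1.79 and -0.70).

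**Figure D3:**
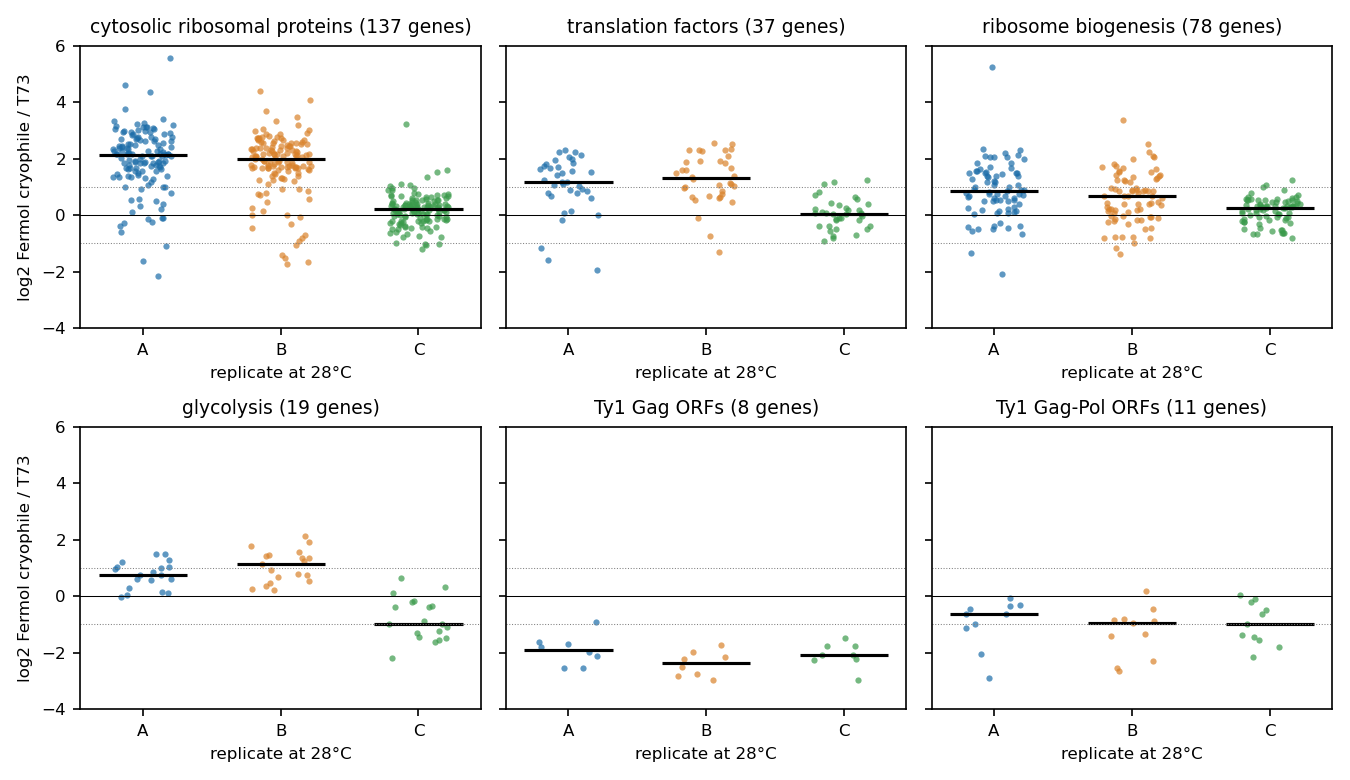
Each point is a gene of the named group, the y axis its log2 ratio of Fermol cryophile over T73, and the x axis the replicate at 28°C. Black bars are medians, dotted lines mark 2-fold, and 1 value below -4 is not drawn. The ribosomal protein genes have medians of 2.13, 1.99 and 0.21, the glycolysis genes 0.76, 1.13 and -0.97, and the Ty1 Gag ORFs lie below 0 on every array.

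The Ty1 Gag ORFs were lower in Fermol cryophile on all 3 arrays, with replicate C as low as the others. The 8 ORFs had medians of -1.91 on A, -2.38 on B and -2.08 on C, and the 6 on chromosomes other than II to IV had -2.06, -2.49 and -1.94. All 8 had an unadjusted limma p below 0.05 on the lower side (against 4.23% of all genes). A set of 7 were 2-fold lower on all 3 arrays (against 0.566% of all genes), and YMR051C passed after adjustment. YML040W was at -2.13, -2.24 and -2.25, with little spread between arrays (SD 0.06, n = 3). YAR010C had the highest mean of the 8 and was at -0.93, -1.97 and -1.78. The median of the means of these ORFs was -2.16 in Fermol cryophile at 28°C and -0.26 at 12°C. In the other strains at 28°C it was -2.32 in S. uvarum and 0.61 in S. kudriavzevii. These ORFs are near-identical copies of one element, share probe sequence and are not independent of each other. The ratio follows both the number of copies and their expression, and the part of each was not tested.

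The ORFs named for the longer Ty1 protein were lower too, by less. The 11 Gag-Pol ORFs had medians of -0.64, -0.94 and -0.97, and 4 of them were 2-fold lower by the median (against 9.17% of all genes). YML045W, at -2.07, -2.30 and -2.17, and YMR045C, at -1.14, -1.43 and -1.54, were 2-fold lower on each array. YBR012W-B was lowest, at -9.44, -2.66 and -0.21, so that replicate A sets its mean. YER138C was highest, at -0.07, 0.18 and -0.63. The 7 ORFs of Ty2, Ty3 and Ty4 had medians of 0.04, -0.58 and -0.12, and none was 2-fold away by the median. They ranged from YJL113W, at -1.49, -0.85 and 0.44, to YIL082W-A, at 0.79, 1.23 and -0.12.

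Among genes of fatty acid synthesis and activation, OLE1, FAS1 and FAA4 were 2-fold lower on all 3 arrays, replicate C included. OLE1, the only fatty acid desaturase of the yeast, was at -2.52, -1.49 and -3.53, with the lowest value on C. FAS1, the beta subunit of fatty acid synthase, was at -1.21, -1.92 and -2.29. FAA4, an acyl-CoA synthetase that activates imported fatty acids, was at -1.85, -1.68 and -1.79. All 9 values of these genes lay below -1. FAA3, of the same family as FAA4 (-0.89 and -0.76 on A and B, mean -0.88), and ACC1, the acetyl-CoA carboxylase (-0.40, -1.07 and -1.10), also had an unadjusted limma p below 0.05 on the lower side, so that 5 of 16 genes did (against 4.23% of all genes) and 0 on the higher side (against 9.2%). FAS2, the alpha subunit of the synthase, did not follow FAS1 and was at -0.21, -0.69 and 0.41. TSC13, at 1.45, 1.77 and 1.04, was the only member 2-fold higher. The medians over the 16 genes were -0.12, -0.26 and -0.54, beside 0.07, 0.17 and 0.01 over all genes.

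INO1, which makes inositol phosphate for phospholipids, was at -2.88, -2.72 and -1.93 (mean -2.51 ± 0.51, SD, n = 3, limma adjusted p = 0.106). It was the lowest of 16 genes of inositol and phospholipid synthesis, a group chosen after its values were seen. OPI3, the methyltransferase that completes phosphatidylcholine, was at -1.69, -2.43 and -0.04. ITR1, the inositol transporter, had the highest mean, at 0.64, 1.28 and -0.13. Sterol synthesis showed no common direction, with medians of -0.30, 0.40 and -0.24 over 34 genes, from HMG1, the reductase that commits carbon to sterols (-1.04, -1.56 and -0.44), to ERG11 (1.03, 1.56 and -0.51).

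**Figure D4:**
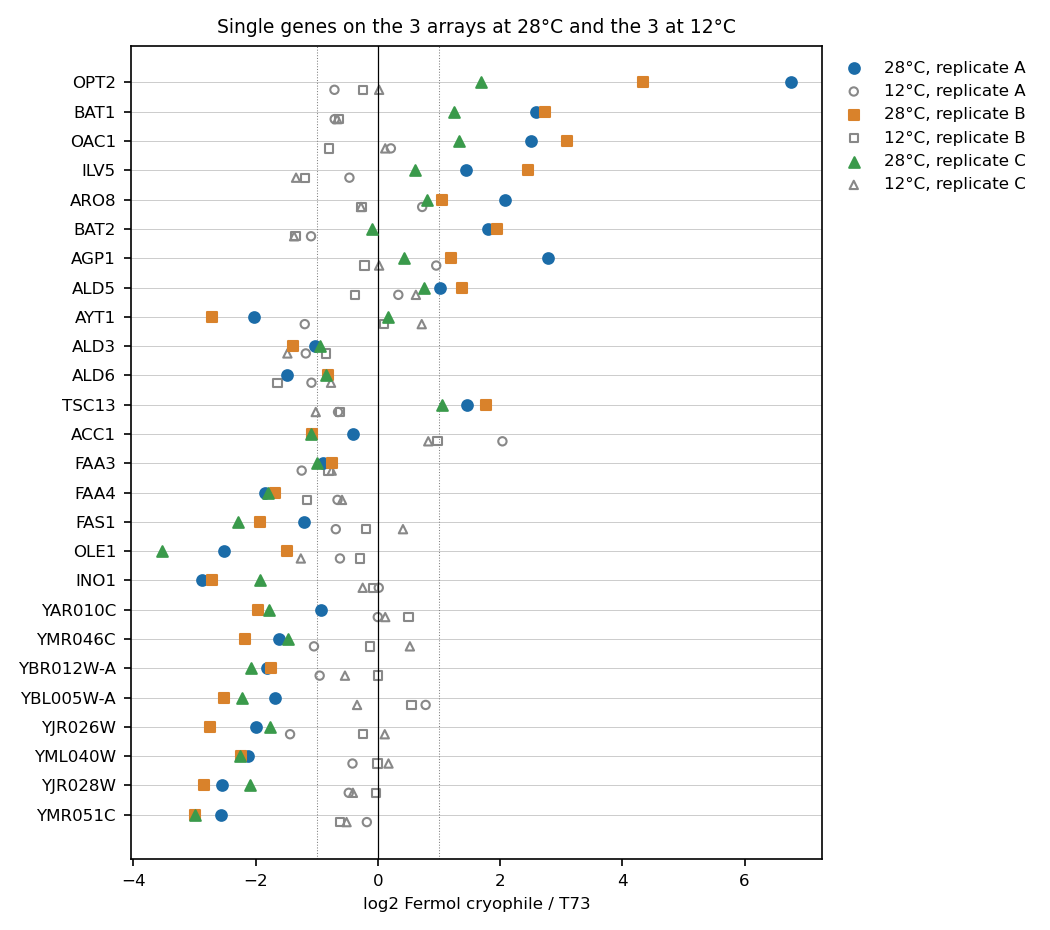
Log2 ratio of Fermol cryophile over T73 (x axis) for single genes (y axis) on each array at 28°C (filled) and at 12°C (open). Dotted lines mark 2-fold. OPT2 runs from 1.69 to 6.76 at 28°C and from -0.71 to 0.02 at 12°C, while OLE1, FAA4, INO1 and the Ty1 Gag ORFs lie on the lower side at 28°C.

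The study was made for genes of aroma synthesis. Of 71 such genes, 19 were 2-fold higher by the median (against 13.4% of all genes) and 3 were 2-fold lower (against 9.17%). None passed after adjustment, and only BAT1 was 2-fold higher on all 3 arrays. An unadjusted limma p below 0.05 was reached by 14 on the higher side and 2 on the lower side (against 9.2% and 4.23% of all genes). The medians of the group were 0.35, 0.77 and -0.01. On chromosomes II to IV 2 of 20 were 2-fold higher, and on the others 17 of 51.

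The transaminases that open the Ehrlich pathway were among the higher genes. BAT1 was at 2.58, 2.74 and 1.25 (mean 2.19 ± 0.82, SD, n = 3, limma adjusted p = 0.127). BAT2, its cytosolic counterpart, was at 1.80, 1.95 and -0.10, so that it was higher on A and B only. ARO8, the main aromatic transaminase, was at 2.08, 1.06 and 0.81. ARO9, the inducible aromatic transaminase, was at -0.36, -0.65 and -0.33, below 0 on each array.

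The genes that build the branched-chain amino acids showed medians of 1.03, 1.43 and 0.01 over 10 genes. By the median 5 were 2-fold higher (ILV2, ILV3, ILV5, LEU1 and LEU4), against 13.4% of all genes. ILV5, the acetohydroxyacid reductoisomerase, was highest at 1.44, 2.45 and 0.61. It was the only one of these 5 to exceed 0.5 on replicate C. LEU3, the regulator of the pathway, had the lowest mean of the 10, at 0.11, -0.41 and 0.37. For aromatic amino acids, ARO7 (chorismate mutase) was at 2.87, 2.11 and 0.35, ARO3 (the first enzyme) at 2.71, 2.54 and -0.01 and ARO2 (chorismate synthase) at 2.18, 2.70 and -0.12. TYR1, which follows ARO7 towards tyrosine, had the lowest mean of these 7 genes, at -0.28, -1.63 and -0.18.

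The decarboxylases and alcohol dehydrogenases followed the split between the arrays. PDC1 and PDC5, the main pyruvate decarboxylases, were at 1.00, 1.63 and -0.55 and at 1.59, 2.04 and -0.50. ARO10, the decarboxylase of the Ehrlich pathway, was at -0.20, -0.82 and 0.18, and PDC2, a regulator, had the lowest mean of these 6 genes at -0.17, -0.97 and 0.08. ADH6 was the highest of 8 alcohol dehydrogenase genes, at 2.00, 2.07 and 0.06, and ADH4 was at 1.31, 1.63 and 0.44. ADH1, the main fermentative enzyme, had the lowest mean of the group, at 0.37, 0.77 and -1.01, with A and B above 0 and C 2-fold below.

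Of the 3 aroma genes 2-fold lower by the median, ALD3 and AYT1 act on acetaldehyde and on acetyl transfer, and MUP1 is a permease. ALD3, a cytosolic aldehyde dehydrogenase, was at -1.03, -1.39 and -0.95, with little spread (mean -1.13 ± 0.23, SD, n = 3, limma adjusted p = 0.217). ALD6, which makes most of the acetate, was also below 0 on each array, at -1.49, -0.81 and -0.84. ALD5, the mitochondrial enzyme, was on the other side at 1.01, 1.38 and 0.76, and PDA1 of pyruvate dehydrogenase was at 1.82, 1.85 and -0.42. AYT1, an acetyltransferase, was at -2.02, -2.71 and 0.18, hence lower on A and B only. EHT1, which makes ethyl esters, had the highest mean of 8 ester genes at 0.91, 0.98 and 0.32. None of the glucanase and glucosidase genes, from EXG2 (-1.23, -0.76 and -0.08) to BGL2 (0.47, 1.33 and -0.85), was 2-fold away by the median. Of 14 permease genes, AGP1, a broad amino acid permease (2.78, 1.20 and 0.44), and PUT4, the proline permease (1.54, 1.77 and 0.15), were 2-fold higher, and MUP1, which takes up methionine, was 2-fold lower at -1.14, -1.84 and 0.31. The permease counts lie near the shares of all genes, 13.4% higher and 9.17% lower.

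In glycolysis replicate C was on the other side of 0 from replicates A and B. The 19 glycolysis genes had medians of 0.76 on A and 1.13 on B and of -0.97 on C. On A 18 of them were above 0, on B 19 and on C 3. Over all genes the counts above 0 were 3185 of 6033, 3419 of 6131 and 3123 of 6146. The 14 glycolysis genes on chromosomes other than II to IV had medians of 0.67, 0.85 and -1.04. TDH3, the main glyceraldehyde-3-phosphate dehydrogenase, was at 0.76, 0.79 and -2.20. PGI1 was the only member with an unadjusted limma p below 0.05, at 1.48, 1.43 and 0.62, and HXK1 had the lowest mean at 0.15, 0.45 and -1.47. The proteasome also had a negative median on C, with medians of 0.48, 0.88 and -0.46 over 34 genes. RPN4, the activator of the proteasome genes, was at 0.07, 0.65 and -2.19, the subunit RPT2 was highest at 2.63, 1.75 and 0.24 and RPN14 was lowest at -1.72, -2.56 and 0.31. The vacuolar ATPase had medians of 0.88, 1.33 and -0.24 over 16 genes, from VMA21 (-0.54, -0.15 and -0.66) to VMA10 (2.64, 1.86 and -0.85). By the median 7 of the 16 were 2-fold higher (against 13.4% of all genes). The ATP synthase had a median near 0 on C, with 0.71, 1.10 and -0.03 over 19 genes, from STF2 (-1.19, -2.29 and -0.87) to ATP16 (3.32, 2.70 and -0.06). For heat shock proteins and chaperones the medians were 0.27, 0.92 and -0.49, with HSP12 lowest (-2.10, -0.94 and -1.65) and the ribosome-bound SSB2 highest (1.87, 2.26 and 0.02).

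**Figure D5:**
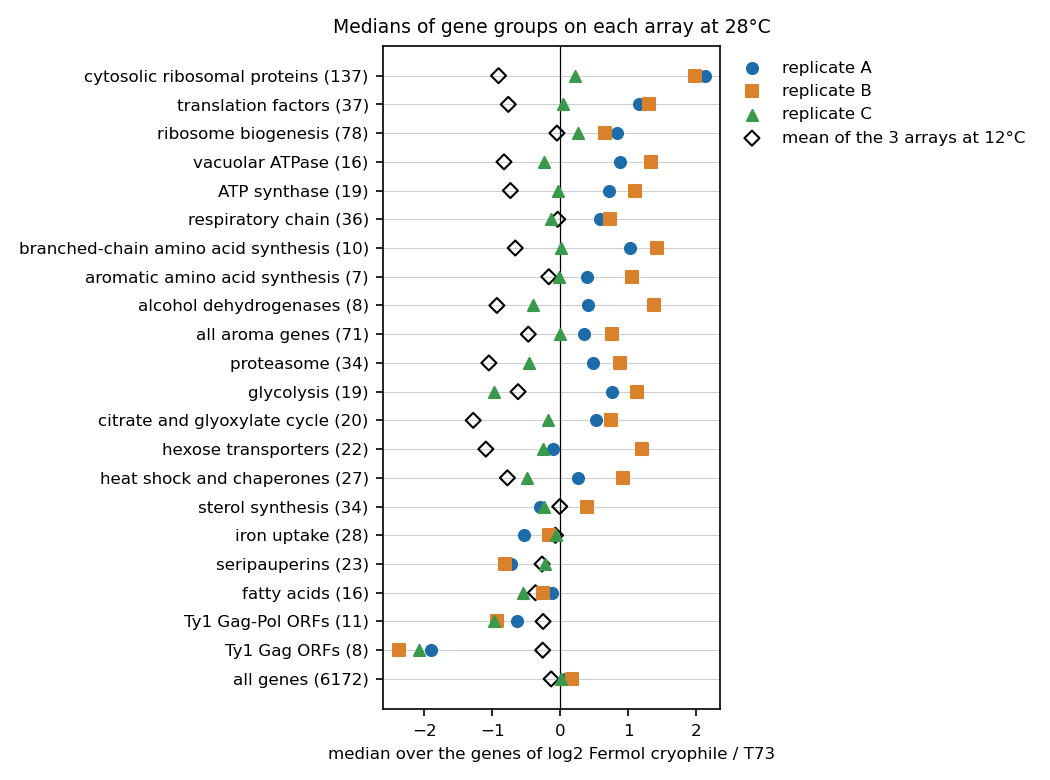
Median log2 ratio of Fermol cryophile over T73 (x axis) of the genes of each group (y axis, number of genes in brackets) on each array at 28°C, with the median of the mean ratios at 12°C as open diamonds. The ribosomal protein genes reach 2.13 on A and 1.99 on B, glycolysis lies at -0.97 on C, and the Ty1 Gag ORFs are near -2 on all 3 arrays.

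The counts of further groups are to be read against the 13.4% of all genes that were 2-fold higher and the 9.17% that were 2-fold lower by the median. The seripauperins, small cell wall proteins of anaerobic growth that are near copies of each other, had medians of -0.72, -0.81 and -0.22, and 4 of 23 were 2-fold lower, with PAU11 lowest at -1.16, -1.57 and -0.85. Of 22 thiamine genes, 5 were 2-fold higher and 3 lower. THI20, of thiamine synthesis, was highest at 2.88, 3.30 and 0.39, and the 3 lower ones were SNZ1, SNZ2 and SNZ3, the vitamin B6 genes. Of 25 genes under nitrogen catabolite control 5 were 2-fold higher and 2 lower, with DAL5, the allantoate permease, highest at 1.99, 2.68 and 0.50 and GAT1, an activator of this group, lowest at -1.20, -2.33 and -0.05. Of 36 respiratory chain genes 11 were higher and 0 lower, above the share of all genes on the higher side, with medians of 0.58, 0.73 and -0.13. Of 30 sulfur and methionine genes 3 were higher and 1 lower, and of 28 iron uptake genes 0 were higher and 3 lower, each near or below the shares of all genes. General stress genes included 0 higher and 3 lower of 20, with SIP18 lowest at -2.02, -2.07 and -0.90.

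Genes that mark other cell states were examined beside these groups. Against the 13.4% of all genes 2-fold higher and the 9.17% lower, 2 of 13 mating and haploid genes were 2-fold higher and 2 lower, with medians of 0.13, -0.16 and 0.08. STE3, the receptor for a-factor, was lowest at -1.20, -2.76 and -0.09, and HO, the mating type endonuclease, was highest at 1.92, 1.21 and 0.08. MATALPHA2, a mating type gene that is not among these 13, was named for its high mean and was at 5.01, 2.11 and 0.58. Its values do not enter the counts and medians of that list. Of 7 meiosis genes 0 were higher and 1 was lower (IME1, at -1.49, -2.23 and 0.05). Of 19 genes whose copies vary between S. cerevisiae strains 1 was higher and 4 were lower by the median, from MAL13 at -2.21, -1.99 and -0.97 to MAL33 at 1.35, 1.59 and 0.86.

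The ratio of Fermol cryophile to T73 at 28°C was then compared with that at 12°C, which asks where the strains differed by temperature. T73 was grown at each temperature too, so its own response enters with the opposite sign. Of 6150 genes, 349 had a higher ratio at 28°C (5.67%) and 407 a lower one (6.62%) at a limma adjusted p below 0.05. The calls depended on single arrays. None passed without replicate A at 12°C, without replicate A at 28°C or without replicate B at 28°C. Without replicate B or C at 12°C 42 and 251 passed, and without replicate C at 28°C 1240 did. With each array centred on its median, 221 of 743 called genes were higher.

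Of the ribosomal protein genes, 57 of 137 had a higher ratio at 28°C and 2 a lower one (against 5.67% and 6.62% of all genes). RPL8A and RPL8B showed differences of 3.38 ± 0.61 and 3.51 ± 0.64 (SE, limma adjusted p = 0.0132 for both). At 12°C RPL8A had been below 0 on all 3 arrays, at -0.61, -1.09 and -1.53, and so did not overlap with 28°C. Of the translation factor genes, 13 of 37 had a higher ratio and 1 a lower one. The ratio of BAT1 was higher by 2.86 ± 0.73 (SE, limma adjusted p = 0.025), from -0.71, -0.63 and -0.66 at 12°C. OPT2 was higher by 4.57 ± 1.00 (SE, limma adjusted p = 0.0199), and YMR051C was lower by 2.41 on the log2 scale (limma adjusted p = 0.0303). Of the aroma genes 9 of 71 had a higher and 4 a lower ratio. ALD3 had means of -1.17 at 12°C and -1.13 at 28°C, and its difference of 0.04 ± 0.51 (SE) did not pass.

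The 3 largest higher ratios among genes with a symbol were those of OPT2, RRP7 (4.44) and SGM1 (4.36), and the 3 largest lower ones were those of FRM2 (-10.3), FRT2 (-7.22) and MET8 (-6.28). FRM2 had 2 values at 28°C, of which replicate A was at -17.3 and replicate C at 0.44, and FRT2 had been at 7.75, 5.40 and 3.98 at 12°C. SPT16 moved from 3.57, 3.49 and 1.72 at 12°C to -2.27, -2.92 and -1.02 at 28°C. PUF4, an RNA-binding regulator of mRNA decay, moved from 4.02, 3.67 and 2.56 to -2.35, -2.55 and -0.67. The control spots moved in the same direction. The Arabidopsis spot was at 4.12, 1.38 and 1.59 at 12°C and at -1.05, -1.24 and -0.75 at 28°C, and the buffer spot at 1.27, 1.22 and 1.79 and at -1.99, -3.04 and -0.22. The 492 ORFs that RefSeq does not annotate had a median of 0.59 at 12°C and of -0.24 at 28°C. The part of these values in the contrast was not tested. Replicate A at 28°C correlated across genes with the 3 arrays at 12°C at r from -0.35 to -0.22, replicate B from -0.62 to -0.37 and replicate C from 0.02 to 0.07. The labels give the same dyes at both temperatures, and the direction was kept.

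Against the mean of S. uvarum and S. kudriavzevii at 28°C, 0 of 6130 genes passed a limma adjusted p of 0.05 (0.0%), and 430 had an unadjusted p below 0.05. The strains share T73 as control, so the values are set side by side only. OPT2 was at -1.10, 0.18 and -0.04 in S. uvarum and at 0.40, 0.17 and -0.55 in S. kudriavzevii, all of them below the lowest value of Fermol cryophile (1.69). YMR051C was at -2.67, -2.72 and -2.76 in S. uvarum, within the range of Fermol cryophile, and at 0.99, -0.66 and 1.81 in S. kudriavzevii. All 137 ribosomal protein genes together had medians of the means of 1.43 in Fermol cryophile, 1.13 in S. uvarum and 0.23 in S. kudriavzevii. BAT1 was at 1.36, 1.08 and 2.79 in S. uvarum, overlapping with Fermol cryophile, and at -0.43, -0.81 and 0.69 in S. kudriavzevii. OLE1 was at -0.69, 0.03 and 2.43 in S. uvarum and at -2.98, -0.99 and 1.70 in S. kudriavzevii, so that its replicates lay on both sides of 0 in each. FAA4 was at -1.45, -0.11 and 1.15 in S. uvarum, above the values of Fermol cryophile. In S. kudriavzevii FAA4 was at -1.74, -1.65 and 0.13. Of these the first lay within the range of Fermol cryophile, the second just above it and the third well above it.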

How the data were processed

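For each array the authors deposited log2 ratios, 1 for every ORF. The methods describe spotted PCR products of S288c ORFs as the array and indirect labelling of RNA after amplification. Background was subtracted globally in GenePix Pro, and Acuity was used to normalise each array and remove spots that were not found. The deposited log2 values were read as Cy5 over Cy3, that is T73 over strain, and the sign was turned. Of 17 genes for which the study's text gives a direction at 28°C, 17 matched after this step. No dye was exchanged, so that a dye bias is part of each ratio. Scanner intensities were not used here. Precision is limited by how many arrays there are.

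Of 6178 lines, 5148 were paired with a symbol in RefSeq (assembly R64), and lines of 6 genes were averaged. The 2 control spots were left out of tests. Each gene was fitted with limma 3.58.1 (R 4.3.3), with all 18 arrays in the model and a mean for every group, and tested two-sided with Benjamini-Hochberg adjustment where at least 2 values existed per group. T73 was only the other channel, so its spread is part of each ratio and cannot be told apart from that of the strain. The series speaks of 3 biological replicates, but the methods of 2 independent fermentations, so 2 of the 3 arrays of a group may share a culture. On simulated data the fit was checked for known changes. The members and lists were chosen with earlier results of these data known. The genes named are those called, those 2-fold away on all 3 arrays, the 10 highest and 10 lowest means among genes with a symbol, 1 sign, 0.5 or more on each array and an unadjusted p below 0.05, the extremes of each list and the aroma genes 2-fold away. Labels of S. uvarum name its strain in more than one way, and the titles were followed. Other genes, and the lists of Ty classes, ribosomal subunits, inositol genes and chromosomes, were chosen after their values were seen.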

Additional observations from a re-analysis of the deposited data

Results flagged for a closer look

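Among the genes followed by name, 11 had a ratio to T73 that differed between 28°C and 12°C, by the limma contrast of both temperatures over all 18 arrays. Higher at 28°C were OPT2 by 4.57 (SE 1.00, adjusted p = 0.0199), RPL8B by 3.51 (SE 0.638, adjusted p = 0.0132), RPL8A by 3.38 (SE 0.607, adjusted p = 0.0132), MUM2 by 2.94 (SE 0.724, adjusted p = 0.0223), BAT1 by 2.86 (SE 0.725, adjusted p = 0.025) and RPS13 by 2.84 (SE 0.653, adjusted p = 0.0213). Lower at 28°C were PUF4, with a difference of -5.27 (SE 1.02, adjusted p = 0.0161), SPT16 with -4.99 (SE 1.17, adjusted p = 0.0217), RKM5 with -4.46 (SE 1.05, adjusted p = 0.0214), VPS17 with -4.09 (SE 0.994, adjusted p = 0.0222) and YMR051C with -2.41 (SE 0.657, adjusted p = 0.0303). For all 11 genes the 3 values at 28°C did not overlap with the 3 at 12°C, but the same contrast had picked them. The share of all genes without overlap was not counted, so this lends the calls no support. No gene of the contrast passed without replicate A at 12°C, replicate A at 28°C or replicate B at 28°C.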

How the results depend on the processing

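Against T73 at 28°C 2 genes passed. The count was 1 with arrays centred on the median, 0 with the replicate block, 0 with the 9 arrays at 28°C, 0 with the 3 arrays alone (1106 at an unadjusted p below 0.05), 260 (189 higher) with arrays scaled, 326 (240 higher) with quantile normalisation, 2498 with array weights, which gave replicates A, B and C weights of 3.92, 1.44 and 0.488, and 0 to 178 with 1 array left out. For 28°C against 12°C, 756 became 1222 when scaled, 1289 after quantile normalisation, 3774 with weights, 1507 with the 6 arrays of the strain, 870 with the replicate block and 0 to 1240 with 1 array left out. Against the other strains, 0 became 6 when scaled, 12 after quantile normalisation, 736 with weights and 0 to 2 with 1 array left out. The 1386 genes 2-fold away by the median became 445 at 3-fold and 728 to 1997 without 1 array, with 822 of 1386 higher and 697 of 1361 when centred. The 58 genes 2-fold away on all 3 arrays became 316 at 1.5-fold and 302 when scaled. Centring each array within each chromosome, chosen after seeing the data, left 0 genes against T73, 795 (252 higher) against 12°C, and 658 of 1306 higher by the median. The cause of these changes was not tested, beyond the fewer arrays or genes each setting holds. Of 273 values for 21 named genes none changed sign, 13, all of OPT2 and YMR051C, lost and 57 gained the threshold. All 21 had 1 sign on the 3 arrays and lay 0.5 or more from 0, so a change of sign was hardly possible. Of 45 pairs of arrays with the same letter, 17 deviated together at r above 0.1, the highest at 0.41 and 0.39, while the lowest was at -0.38 and the median at 0.03. Since this did not hold for every pair, the letters were not taken as pairs. Arrays with different letters deviated together at r from -0.45 to 0.41. Both extremes involved replicate A of S. uvarum at 28°C, the lowest with replicate B and the highest with replicate C of Fermol cryophile at 28°C. The search for promoter motifs was not run.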

Other observations

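On replicate C 143 genes were 2-fold higher, of which 61 were also above 0 on A and B, and 234 were 2-fold lower, of which 81 were also below 0 on A and B. Of these, 24 and 34 were 2-fold away on all 3 arrays. Over all genes, 3185 of 6033 were above 0 on A and 3419 of 6131 on B. The share of all genes above or below 0 on both A and B was not counted. The counts of 61 and 81 therefore cannot show whether C went with A and B. HSP26, a small heat shock protein, was at -0.76, 0.40 and -3.22, and ZAP1, the activator of zinc uptake genes, at 0.19, -0.15 and -3.41. RPL20B was at 0.16 on B and 3.21 on C and had no value on A. These genes were picked after their values were seen. The 492 ORFs without an annotated gene had medians of -0.30, -0.40 and -0.02 on the 3 arrays, and 89 of them were 2-fold lower by the median against 50 higher.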
